A study of Ovis aries with 10 samples.

Results

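Genes that promote growth, block cell death or drive the cell cycle were examined in the left ventricular free wall of fetal sheep, 7 in all of the 1020 gene names on the array. MYC, BCL2, FGF2 and FGF18 formed the growth and survival set (4 genes), and CCND3, CCNA2 and HMMR the cycle set (3 genes). All non-control probes whose gene name, accession or description named a member were taken, which gave 11 of 15008 probes on the array. MYC was listed as C-MYC and HMMR under its older name RHAMM. The members were selected on measured values, their levels in cortisol against control arrays of these same samples, so their differences between groups are a description without a test.

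From about gestational day 115, ewes with 1 fetus each were given cortisol by continuous infusion at 1 mg/kg/day, or vehicle in its place. Day 140 is given as the end of the infusion. The hearts were taken at 139 to 144 days, once labour had started. Cortisol is the main glucocorticoid of sheep. The control group held ventricles of 5 fetuses of vehicle-infused ewes and the cortisol group 5 of cortisol-infused ewes, 1 array per fetus, from treatment groups of 7 ewes each. The ewe, not the fetus, was infused, and every fetus had passed the onset of labour. The labels give no strain and no sex. Free-text notes of 9 samples name a different muscle, while titles, source and tissue fields name the left ventricle. The cardiac and slow muscle myosin MYH7 was well above background on 10 of 10 arrays, as were TPM1 and CRYAB, while the fast skeletal myosins MYH1 and MYH2 and the skeletal muscle factor MYF5 were so on 0 of 10. The probes of MYOD1, another skeletal muscle factor, were on 6 and 1. Other genes of the skeletal muscle list were measured: TNNC2, the fast skeletal troponin C, and PYGM, the muscle glycogen phosphorylase, were well above background on 10 of 10.

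The members act at successive steps of growth control. FGF2 and FGF18 are secreted fibroblast growth factors that act through FGF receptors on the cell surface. MYC is a transcription factor that growth signals induce and that drives ribosome production and entry into the cell cycle. BCL2 sits on mitochondria and holds back the pores that start apoptosis. CCND3, a D-type cyclin, pairs with CDK4 or CDK6 to pass the first cycle checkpoint. CCNA2, cyclin A2, works later, in DNA synthesis and before mitosis. HMMR is a hyaluronan receptor that also binds the mitotic spindle. Sheep heart muscle cells largely leave the cycle before birth and then grow by enlarging, and cortisol rises in the fetus before term as part of organ maturation.

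The probes are 60-base oligos, and several pairs read nearly the same stretch of a transcript. The sequences of 6 probes are shown because the weight of a 2-probe result depends on that overlap. Capitals mark the bases that both probes of a gene share, and a probe without capitals has no partner.
BCL2 A_70_P031256: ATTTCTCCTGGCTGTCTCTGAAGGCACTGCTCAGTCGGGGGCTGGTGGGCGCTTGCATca
BCL2 A_70_P031257: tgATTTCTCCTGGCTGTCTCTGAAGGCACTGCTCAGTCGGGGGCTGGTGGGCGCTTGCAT
FGF2 A_70_P039491: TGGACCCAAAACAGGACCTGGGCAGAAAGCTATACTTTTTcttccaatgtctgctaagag
FGF2 A_70_P039492: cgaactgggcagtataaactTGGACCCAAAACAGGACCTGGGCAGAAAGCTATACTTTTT
FGF18 A_70_P067996: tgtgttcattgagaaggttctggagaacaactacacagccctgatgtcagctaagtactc
CCNA2 A_70_P034351: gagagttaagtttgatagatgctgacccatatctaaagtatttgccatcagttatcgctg

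The BCL2 probes shared 58 of their 60 bases and the FGF2 probes 40. The MYC probes, A_70_P030411 and A_70_P030412, shared 20. The HMMR probes, A_70_P016336 and A_70_P016337, shared 0 and lay end to end, starting at bases 742 and 682 of the deposited sequence they read. Overlapping probes are not independent measurements of a gene. The share of G and C ran from 35% in MYC probe A_70_P030411 to 60% in both BCL2 probes, where the 5th to 95th percentile of tested probes was 35% to 55%. The files map none of these probes to the genome, so no coordinates are given.

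Over the series, the 75th percentile of spot intensity ran from 177 to 286 scanner units, and the share of spots well above background from 63.5% to 73.2%. The groups differed in brightness: the 75th percentile was 217 to 286 units in controls and 177 to 241 with cortisol. Cortisol replicates 1, 2 and 4, at 196, 185 and 177 units, were dimmer than every control. A level here is the log2 processed intensity minus the log2 of its own array's 75th percentile. Levels of different probes are not compared, because each oligo binds with its own strength. The arrays came from 2 slides: slide 1 carried 3 of each group, and slide 2 carried the remaining 2 of each. On cortisol replicate 4 an area holding 8.38% of the spots had lost signal, and 0 member spots lay inside it. Outside it, processing still moved member spots of that array unevenly. MYC probe A_70_P030411 went from a mean intensity of 430 to a processed one of 521 units, and CCND3 from 167 to 100. On cortisol replicate 5 they went from 737 to 649 and from 187 to 166. The cause was not tested. In the tissue as a whole, fewer cells of a type and less RNA per cell cannot be told apart.

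Of the 11 probes, 10 were well above background on at least 5 arrays and were fitted with limma beside all 10261 probes that met this filter. The fit called 0 of the 10 at an adjusted p of 0.05, against 0.00% of all tested probes. At an unadjusted p under 0.05, which 3.25% of all probes met, it gave 5 member probes higher with cortisol, against 1.60% of all probes, and 1 lower, against 1.65%. This contrast chose the members, so nothing is read from these counts. The control and cortisol levels were fully apart in 0 of the 10 probes, against 0.838% of all tested probes. MYC, BCL2 and FGF2 had higher group means with cortisol, and FGF18, CCND3, CCNA2 and HMMR lower ones.

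**Figure D1:**
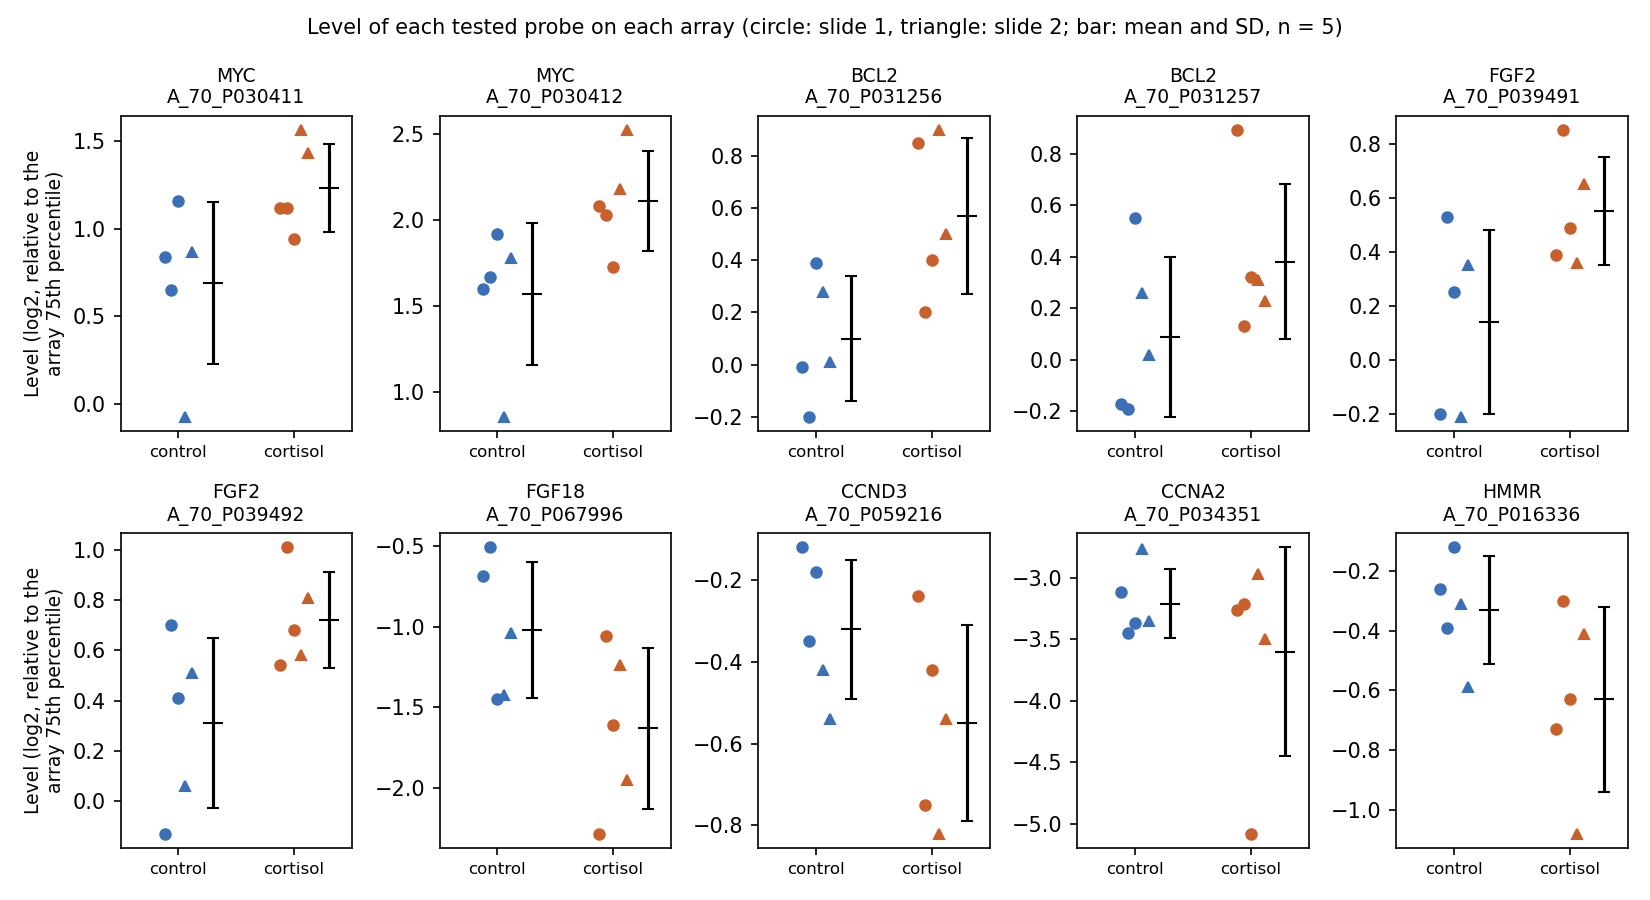
Level of each tested probe (log2, relative to the array's 75th percentile) on the 5 control and 5 cortisol arrays, with circles for slide 1, triangles for slide 2 and bars for mean and SD. The cortisol means are higher in the MYC, BCL2 and FGF2 panels and lower in the FGF18, CCND3, CCNA2 and HMMR panels, and the groups overlap in all 10 panels.

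FGF2, the ligand best covered on the array, had a mean level 1.32-fold higher with cortisol by probe A_70_P039491 and 1.33-fold by A_70_P039492. By the first probe the control levels, from replicate 1 to 5, were -0.20, 0.53, 0.25, -0.21 and 0.35. The cortisol levels were 0.39, 0.85, 0.49, 0.36 and 0.65. Control replicates 1 and 4 were the low arrays and cortisol replicate 2 the high one, and the groups overlapped, with 2 of 5 cortisol arrays above every control. The control mean was 0.14 ± 0.34 (SD, n = 5) and the cortisol mean 0.55 ± 0.20 (SD, n = 5), a difference of 0.40 ± 0.17 (SE, limma). Normexp is another way to correct for background, used here on mean intensities before processing, with an offset of 50 units. The offset by itself shrinks log2 differences, most of all in dim probes. With normexp the difference was 0.28, and 0.22 for the other probe. That probe, A_70_P039492, gave 0.31 ± 0.34 (SD, n = 5) and 0.72 ± 0.19 (SD, n = 5), a difference of 0.41 ± 0.17 (SE). The 2 probes followed each other closely within the groups (r = 0.98 over 10 arrays, exact permutation p = 0.000278). Overlapping probes read the same RNA on each array. Here and for MYC and BCL2, such a correlation therefore does not support a difference between groups.

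FGF2 probe A_70_P039491 was printed at 5 places on each array, which shows the noise between spots of 1 array. The spots of 1 array had an SD of 0.04 to 0.07 on 9 of the 10 arrays. The SD of 0.34 between control arrays holds the spread between fetuses and any error of labelling and hybridisation together. On cortisol replicate 4 the SD was 0.29, with spots from -0.06 to 0.70. The low spot there lay 4 positions from the area of lost signal, and the same position averaged 0.40 on the other 9 arrays. Without that spot the array's FGF2 level was 0.46 in place of 0.36, and the difference between groups was 0.43. Processing also moved other FGF2 spots of that array. A spot of the same probe went from a mean intensity of 297 to a processed one of 206 units. The spot of A_70_P039492 went from 198 to 264. The cause was not tested.

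**Figure D2:**
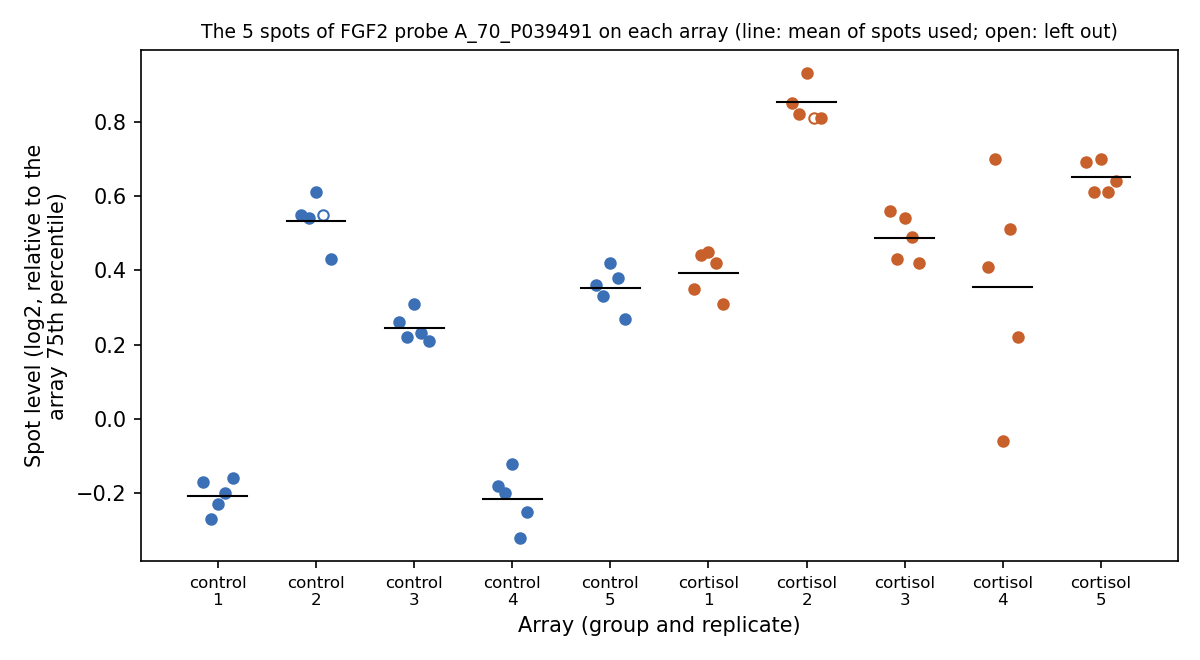
Levels (log2, relative to the array's 75th percentile) of the 5 spots of FGF2 probe A_70_P039491 on each array, with a line at the mean of the spots used and open circles for spots left out. Spots of 1 array lie close together except on cortisol replicate 4, where they run from -0.06 to 0.70.

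FGF18, the other ligand, had a lower mean level with cortisol, the opposite of FGF2. The control levels were -0.69, -0.51, -1.45, -1.42 and -1.04 from replicate 1 to 5. The cortisol levels were -2.28, -1.06, -1.61, -1.24 and -1.95. Cortisol replicates 1, 3 and 5 lay below every control, and replicates 2 and 4 within the control range. The means were -1.02 ± 0.42 (SD, n = 5) and -1.63 ± 0.50 (SD, n = 5), a difference of -0.60 ± 0.27 (SE, limma), or a 1.52-fold lower mean. Processed intensities of this probe ran from 40.3 to 201 units. The difference was -0.24 with the normexp background correction and -0.41 in the authors' deposited table. By slide, it was -0.76 ± 0.36 (SE) on slide 1 and -0.37 ± 0.34 (SE) on slide 2.

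Other genes of the FGF pathway were counted from a list of 30 ligands, receptors and cofactors. The array held 8 of them and 5 passed the filter on dim probes, 2 of which are FGF2 and FGF18. The limma fit called 0 of 5 in either direction. FGF1, acidic fibroblast growth factor, had a difference of -0.11 ± 0.14 (SE) and FGF7, keratinocyte growth factor, 0.34 ± 0.20 (SE). The receptor FGFR1 had -0.28 ± 0.32 (SE) over 4 control and 5 cortisol arrays. Its spot fell inside the damaged area of cortisol replicate 4, and without that area the difference was 0.02. The median of the 3 differences other than those of members was -0.11, beside 0.00 over all tested probes, and 0.08 with normexp, beside 0.06.

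MYC had a mean level 1.45-fold higher with cortisol by probe A_70_P030412. The control levels were 1.60, 1.67, 1.92, 0.86 and 1.78 from replicate 1 to 5, and the cortisol levels 2.08, 2.03, 1.73, 2.18 and 2.52. Control replicate 4 stood low and cortisol replicate 5 high, and 4 of 5 cortisol arrays lay above every control. The means were 1.57 ± 0.41 (SD, n = 5) and 2.11 ± 0.29 (SD, n = 5), a difference of 0.54 ± 0.21 (SE, limma). Probe A_70_P030411 gave 0.69 ± 0.46 (SD, n = 5) and 1.23 ± 0.25 (SD, n = 5), a difference of 0.54 ± 0.22 (SE). With normexp the difference was 0.46 by A_70_P030412 and 0.37 by A_70_P030411. The probes followed each other within groups (r = 0.92 over 10 arrays, exact permutation p = 0.00257).

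The size of the MYC difference rested in part on control replicate 4. Without that array the difference was 0.36 by A_70_P030412 and 0.35 by A_70_P030411. Within slide 1 it was 0.22 ± 0.16 (SE) and 0.18 ± 0.16 (SE) by the same probes, and within slide 2, which holds control replicate 4, 1.03 ± 0.39 (SE) and 1.09 ± 0.37 (SE). Whether the treatment effect differed by slide played no part in choosing the members and was tested in limma. For A_70_P030411 it was 0.91 ± 0.38 (SE), with an unadjusted p of 0.0404 and an adjusted p of 0.888. For A_70_P030412 it was 0.81 ± 0.38 (SE), with an adjusted p of 0.888. A difference between the slides was thus not called for MYC.

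**Figure D3:**
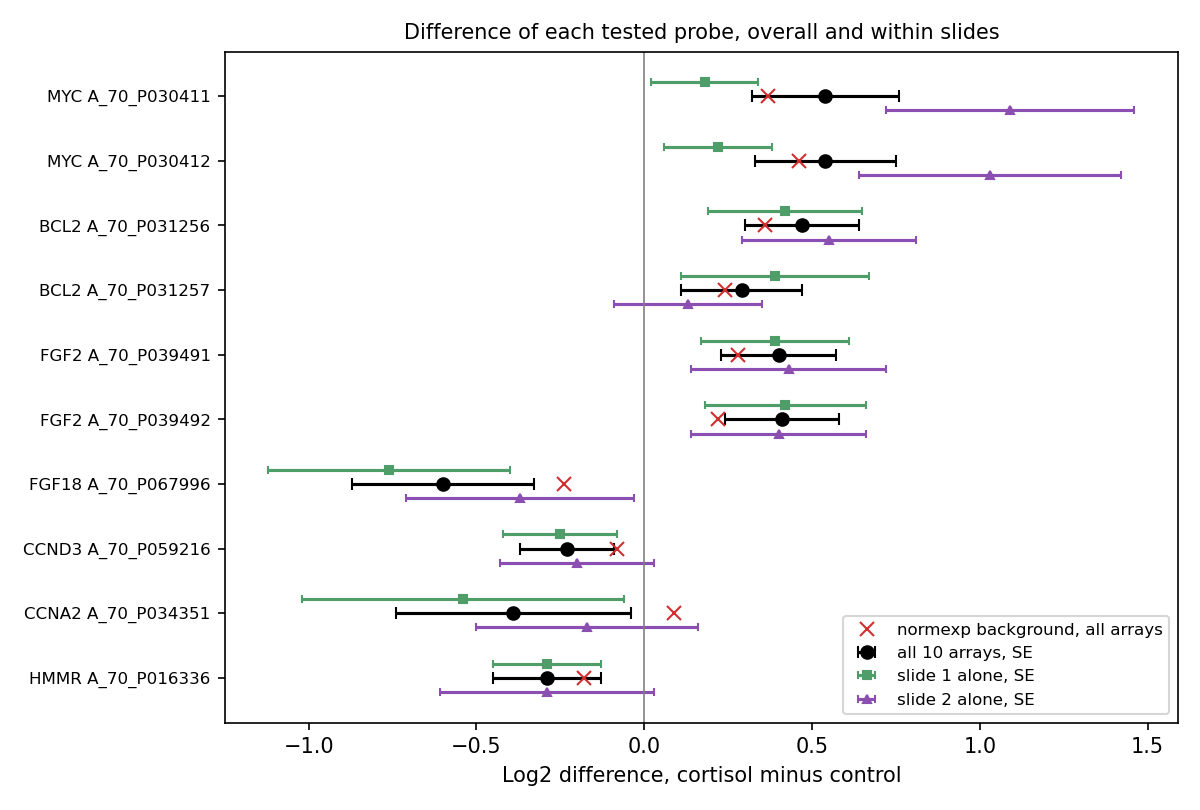
Log2 difference, cortisol minus control, of each tested probe over all 10 arrays (circle with SE), within slide 1 (square with SE) and slide 2 (triangle with SE), and with the normexp background correction (cross). Both MYC probes have a small difference on slide 1 and one above 1 on slide 2. The cross of every probe lies nearer to 0 than its circle, and that of CCNA2 lies on the other side of 0. The offset of normexp by itself shrinks differences of dim probes.

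Partners of MYC and transcription factors that early growth signals induce were counted as 1 list with MYC. Of 19 listed genes, 6 were on the array and tested, and limma called 0 in either direction. The 5 estimates other than that of MYC were at 0 or above it, with a median of 0.10, beside 0.00 over all tested probes. With normexp the median was 0.09, beside 0.06 over all. JUN, a subunit of the AP-1 factor, had 0.00 ± 0.08 (SE), JUND 0.06 ± 0.24 (SE) and JUNB 0.13 ± 0.22 (SE). EGR1, a zinc finger factor, had 0.10 ± 0.16 (SE), and FOS, the partner of JUN, had 0.34 ± 0.51 (SE).

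BCL2 had a mean level 1.39-fold higher with cortisol by probe A_70_P031256 and 1.22-fold higher by A_70_P031257. By the first, the control levels were -0.01, -0.20, 0.39, 0.28 and 0.01 and the cortisol levels 0.85, 0.20, 0.40, 0.90 and 0.50, each from replicate 1 to 5. By the second, the control levels were -0.17, -0.19, 0.55, 0.26 and 0.02 and the cortisol levels 0.89, 0.13, 0.32, 0.31 and 0.23. By the first probe 4 of 5 cortisol arrays lay above every control, and by the second only cortisol replicate 1 did. The difference was 0.47 ± 0.17 (SE, limma) by the first and 0.29 ± 0.18 (SE) by the second. With normexp it was 0.36 by the first and 0.24 by the second.

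The 2 BCL2 probes differ by a shift of 2 bases and disagreed chiefly on cortisol replicate 4. There their gap departed by 0.48 from its mean over arrays. Both spots lay outside the area of lost signal, by 62 and 33 positions. Before processing, their mean intensities on that array were 344 and 322 units, with local backgrounds of 23 and 31.5. The processed intensities were 330 and 220 units, so the gap was wider after processing than before. The cause was not tested. Within groups they correlated at r = 0.79 over 10 arrays (exact permutation p = 0.00653). Without cortisol replicate 1 the difference of A_70_P031257 was 0.16, and that of A_70_P031256 was 0.40. Within slide 2 the probes gave 0.13 ± 0.22 (SE) and 0.55 ± 0.26 (SE).

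Other genes of death control were counted from a list of 34. The array held 11 and 9 were tested, of which limma called 0 in either direction. Of the 8 genes other than BCL2, 2 had differences above 0 and 6 below, with a median of -0.14, beside 0.00 over all tested probes. With normexp 5 were above 0 and 3 below, with a median of 0.07, beside 0.06 over all. BCL2 relatives that protect cells had 0.23 ± 0.21 (SE) for MCL1 and 0.07 ± 0.18 (SE) for BCL2L1. Relatives that promote death had -0.13 ± 0.11 (SE) for BAD and -0.17 ± 0.13 (SE) for BAX. TNFRSF1A, a tumour necrosis factor receptor, had -0.07 ± 0.16 (SE). The mitochondrial nuclease ENDOG had -0.53 ± 0.29 (SE). Its spot on cortisol replicate 4 fell in the damaged area, and leaving that area out gave -0.22.

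Growth factors and receptors outside the FGF family were also counted. Of 36 listed, 18 were tested, and limma called 0 in either direction. Of these, 12 estimates were above 0 and 6 below, with a median of 0.13, beside 0.00 over all tested probes. With normexp 15 were above 0 and 3 below, with a median of 0.12, beside 0.06 over all. IGF2, the fetal insulin-like growth factor, had -0.09 ± 0.31 (SE), its signalling receptor IGF1R 0.08 ± 0.13 (SE) and VEGFA, which drives vessel growth, 0.17 ± 0.26 (SE). The insulin-like growth factor binding proteins had 0.04 ± 0.21 (SE) for IGFBP6, -0.46 ± 0.35 (SE) for IGFBP5, 0.16 ± 0.24 (SE) for IGFBP4 and 0.18 ± 0.54 (SE) for IGFBP2. KITLG, the ligand of KIT, had 0.09 ± 0.20 (SE).

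CCND3 had a mean level 1.17-fold lower with cortisol. The control levels were -0.12, -0.35, -0.18, -0.42 and -0.54 from replicate 1 to 5, and the cortisol levels -0.24, -0.75, -0.42, -0.82 and -0.54. Cortisol replicates 2 and 4 lay below every control and the other 3 within the control range. The means were -0.32 ± 0.17 (SD, n = 5) and -0.55 ± 0.24 (SD, n = 5), a difference of -0.23 ± 0.14 (SE, limma). By slide, it was -0.25 ± 0.17 (SE) on slide 1 and -0.20 ± 0.23 (SE) on slide 2. Without cortisol replicate 4 it was -0.16, with normexp -0.08 and in the authors' deposited table -0.12.

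HMMR had a mean level 1.23-fold lower with cortisol by its 1 measurable probe, A_70_P016336. The control levels were -0.26, -0.39, -0.12, -0.31 and -0.59 from replicate 1 to 5, and the cortisol levels -0.73, -0.30, -0.63, -1.08 and -0.41. Cortisol replicates 1, 3 and 4 lay below every control, and replicates 2 and 5 within the control range. The means were -0.33 ± 0.18 (SD, n = 5) and -0.63 ± 0.31 (SD, n = 5), a difference of -0.29 ± 0.16 (SE, limma), and it was -0.29 within each slide. It was -0.18 without cortisol replicate 4, and also with normexp. The abutting probe A_70_P016337 was well above background on 0 of 10 arrays, with processed intensities of 1.92 to 9.17 units, and was not tested.

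CCNA2 was the dimmest tested member, with processed intensities of 7.1 to 32 units, and its difference rested on 1 array. The control levels were -3.11, -3.45, -3.37, -2.76 and -3.35 from replicate 1 to 5. The cortisol levels were -3.26, -3.21, -5.08, -2.97 and -3.50. Cortisol replicate 3 stood far below the rest and was the 1 array where the probe was not well above background, while the other 4 cortisol arrays lay at -3.50 to -2.97, close to the controls. The means were -3.21 ± 0.28 (SD, n = 5) and -3.60 ± 0.85 (SD, n = 5), a difference of -0.39 ± 0.35 (SE, limma). Without cortisol replicate 3 the difference was -0.02, and with normexp over all arrays it took the other sign, 0.09. The median over all tested probes was 0.06 with normexp, whose offset shrinks differences of a probe this dim.

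The genes most like CCNA2 over the arrays, and the other tested genes of mitosis and replication, were read on the same array. On cortisol replicate 3, CDK1, the kinase that starts mitosis, had a level of -5.10, against -3.20 to -2.33 on the other 9 arrays. AURKA, a spindle kinase, had -5.06 there, against -4.44 to -3.76. Both were not well above background on that array, and AURKA was well above it on 7 of 10. The probe of TYMS, which makes thymidylate for DNA, had no usable spot there, and it was not well above background on cortisol replicates 3, 4 and 5 alike. PCNA, the sliding clamp of DNA polymerase, had -0.33 there, against -0.18 to 0.30 on the 5 other arrays with a value. HMMR had -0.63 there, within the -1.08 to -0.12 of the other arrays. Without cortisol replicate 3 the treatment differences of CDK1 and AURKA were 0.28 and 0.12, in place of -0.21 and -0.09.

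**Figure D4:**
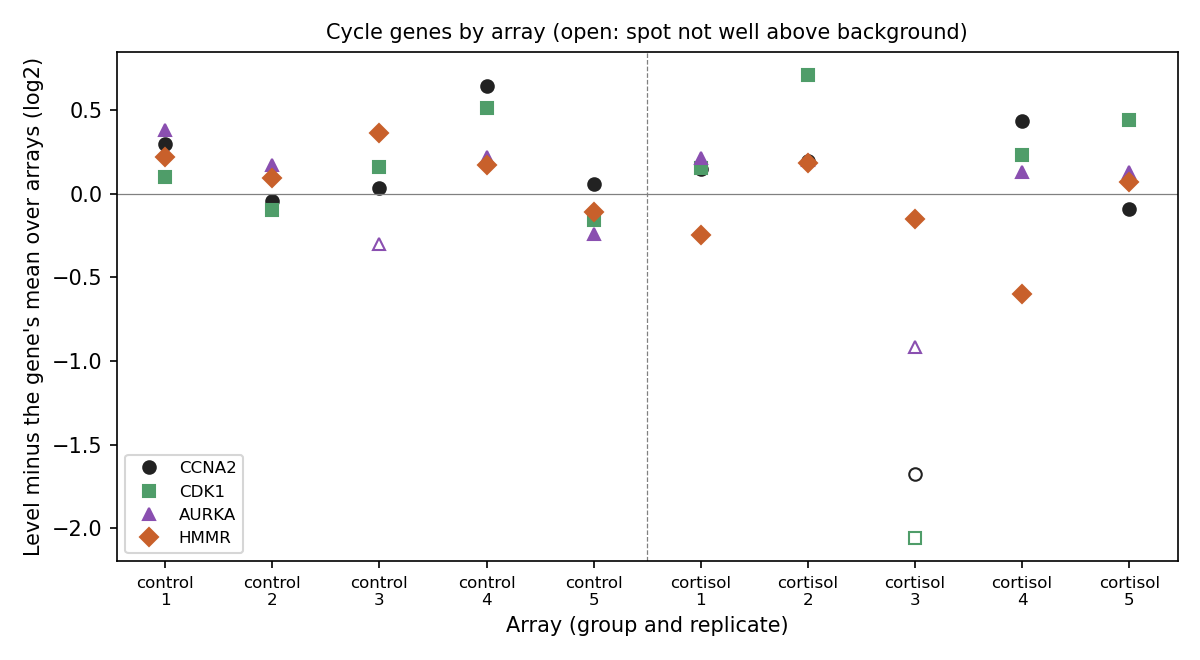
Levels of CCNA2, CDK1, AURKA and HMMR on each array (log2, minus the gene's mean over the 10 arrays), with open symbols where the spot was not well above background. CCNA2, CDK1 and AURKA have their lowest points on cortisol replicate 3, where all 3 are open, and HMMR has its lowest on cortisol replicate 4.

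Of 24 listed cyclins, cyclin-dependent kinases and CDC25 genes, 7 were tested, and limma called 0 in either direction. Of the 5 genes other than CCND3 and CCNA2, 4 had differences below 0 and 1 above, with a median of -0.12, beside 0.00 over all tested probes. With normexp, and also without cortisol replicate 3, 3 were below 0 and 2 above, with medians of -0.06 and -0.03. CCND2, the D-type cyclin related to CCND3, had -0.18 ± 0.23 (SE), CDK4, the partner kinase of both, -0.12 ± 0.11 (SE), and CDK5 -0.12 ± 0.19 (SE). CDK2, the partner of cyclins E and A, had 0.10 ± 0.17 (SE) with 4 cortisol arrays measured, since the array with the area of lost signal gave it no value. Of the cyclin-dependent kinase inhibitors, CDKN1C had -0.15 ± 0.33 (SE) and CDKN1B 0.40 ± 0.22 (SE), and neither was called. Of 41 genes listed for mitosis and DNA replication, only 4 were tested and 0 called. PCNA had 0.00 ± 0.20 (SE) over 3 control and 3 cortisol arrays, and TYMS -0.32 ± 0.34 (SE) over 5 and 4.

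The growth set was set against the cycle set on each array, with 1 probe per gene and each gene centred on its mean over the arrays. The probe of highest mean level was used: A_70_P030412 for MYC, A_70_P039492 for FGF2 and A_70_P031256 for BCL2. That BCL2 probe had the larger difference, 0.47 against 0.29. On cortisol replicate 4 it stood at 0.90, against 0.31 by A_70_P031257. The growth mean minus the cycle mean was -0.42, 0.03, -0.24, -0.67 and 0.03 on control replicates 1 to 5, and -0.08, 0.18, 0.56, 0.44 and 0.17 on cortisol replicates 1 to 5. Cortisol replicates 2 to 5 lay above every control, and replicate 1 within the control range. The group means were -0.25 ± 0.30 (SD, n = 5) and 0.25 ± 0.25 (SD, n = 5), a gap of 0.51 in log2. The members' directions were known when they were chosen, so the gap is a description and no test was made. The gap was 0.43 on slide 1 and 0.62 on slide 2, and 0.26 with normexp.

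The parts of this gap were unequal. The growth mean differed by 0.20 and the cycle mean by -0.30. FGF18 had the opposite sign to the other 3 growth genes, and without FGF18 the gap was 0.78. Without CCNA2 the gap was 0.47. The 4 genes grouped as growth signals therefore did not share a direction.

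**Figure D5:**
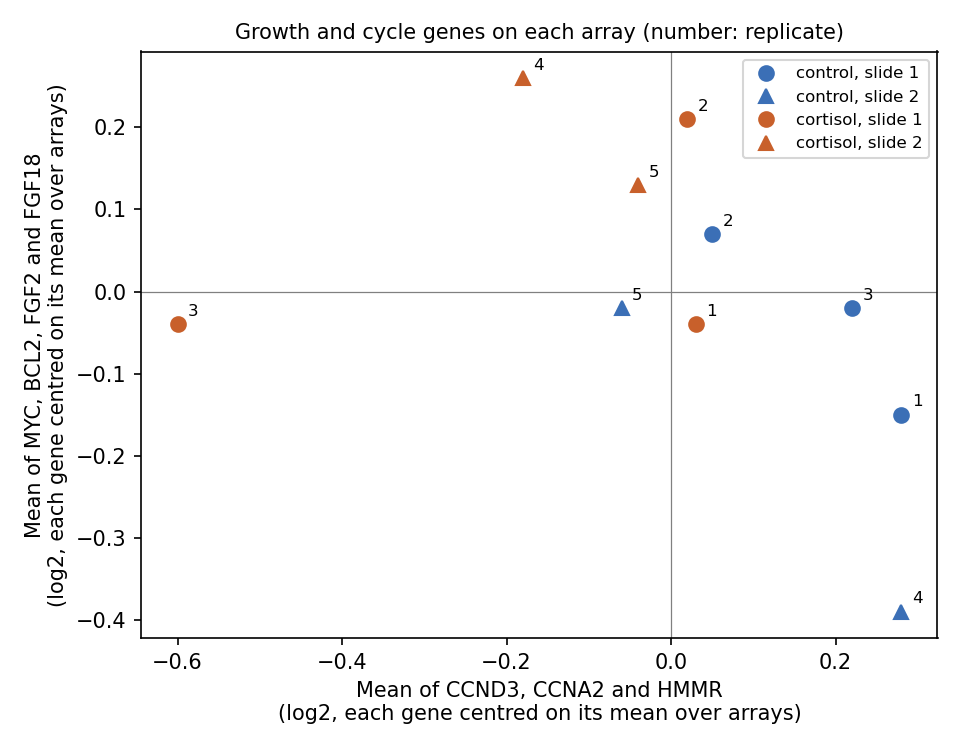
Mean of the 4 growth genes against the mean of the 3 cycle genes on each array (log2, each gene centred on its mean over arrays), coloured by group, shaped by slide and numbered by replicate. Cortisol replicate 3 has the lowest cycle mean (-0.60) and control replicate 4 the lowest growth mean (-0.39), and the groups overlap on both axes.

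The slide did not separate the members. In limma with treatment as a covariate, 0 of the 10 member probes passed for the difference between slides at an adjusted p of 0.05, against 0.00% of all tested probes. At an unadjusted p under 0.05 the count was 0 of 10, against 9.10% of all. The member nearest to the threshold was CCND3, at -0.24 ± 0.13 (SE) for slide 2 minus slide 1 (unadjusted p = 0.0847, adjusted p = 0.588 in limma). For an effect of treatment that differed by slide, 0 of 10 passed, against 0.00%, and 1 of 10 had an unadjusted p under 0.05, against 5.10%. That one was MYC probe A_70_P030411.

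Members were also compared with each other from fetus to fetus, after the mean of each group was taken out. Of the 21 pairs of members, 10 had a positive correlation, and 0 had an adjusted p under 0.05 by an exact permutation test within groups. The pair with the smallest p was BCL2 and FGF18, with r = -0.63 and rho = -0.64 over 10 arrays (exact permutation p = 0.0794 and 0.0797, adjusted 0.949 and 0.677). Without the 2 arrays farthest from the BCL2 median r was -0.92. FGF2 and MYC had r = 0.39 and rho = 0.42 (exact permutation p = 0.383 and 0.267, adjusted 0.949 and 0.677), and r = 0.21 without the 2 farthest arrays. Fetuses high in 1 growth gene were thus not shown to be high in another.

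The residual spread between arrays, which holds differences between fetuses and technical error together, differed among the members. CCNA2 had an SD of 0.63 within groups, at the 90.8th percentile of tested probes, and FGF18 0.46, at the 82.1st. The SD of CCNA2 was 0.28 in controls and 0.85 with cortisol, where replicate 3 was not well above background. CCND3 had the smallest, 0.21, at the 32.8th percentile, and HMMR 0.25, at the 45.3rd. The MYC probes had 0.37 and 0.36, and the BCL2 and FGF2 probes 0.27 to 0.31.

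The named genes whose levels ran most like each member over the arrays were found among 621 candidates, as a description. The arrays share their scaling and include both groups, so such correlations also hold any difference between groups. The highest of 621 correlations over 8 to 10 arrays can be large by chance. No chance level was worked out, so a link between these genes was not tested. For MYC they were HIF1A, the oxygen-sensing factor (r = 0.87 over 9 arrays), SLC25A33 (0.81 over 9) and NUS1 (0.80 over 10). For BCL2 they were INHBA, an activin subunit (0.87 over 10), CREB, a transcription factor that responds to cyclic AMP (0.85 over 10) and ANGPT2, an endothelial growth factor (0.83 over 8). For FGF2 they were PPP1R12A, a myosin phosphatase subunit (0.89 over 10), AGGF1, an angiogenic factor (0.83 over 10) and SLAN (0.79 over 10).

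For FGF18 the closest were ST3GAL4 (r = 0.86 over 10 arrays), PPAR alpha, a regulator of fatty acid oxidation (0.82 over 10) and TIE1, an endothelial receptor (0.82 over 8). For CCND3, BAT3 (0.84 over 10) and DOHH (0.76 over 10) were among them. For HMMR they were RPL13A (0.90 over 9), LMNB1, a nuclear lamin (0.84 over 9) and RPS20 (0.83 over 10). For CCNA2 they were CDK1 (0.92 over 10), FCER1A (0.88 over 10) and AURKA (0.86 over 10). Without cortisol replicate 3 these last 3 were 0.37, 0.67 and 0.39 over 9 arrays, so that the likeness to CDK1 and AURKA rested on that array.

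Markers of other cells were read beside these genes, as summed intensities relative to the 75th percentile, not in log2. Such a sum rests mostly on its brightest probe and says little of the other genes. The brightest were PECAM1 for endothelium (control mean level 2.65), DCN for fibroblasts (5.71) and LPL for fat cells (3.32). The 5 tested of 8 endothelial markers summed to 6.9 to 11.2 in controls and 8.03 to 9.43 with cortisol. The 3 tested of 8 fibroblast markers summed to 47.4 to 81.4 and 50.9 to 73.3, and the 2 tested of 10 leukocyte markers to 0.144 to 0.573 and 0.222 to 0.486. The 2 tested of 6 smooth muscle markers summed to 9.28 to 12.9 in controls and 9.01 to 54.4 with cortisol, and the 5 tested of 6 fat cell markers to 9.51 to 15.3 and 11.2 to 18.9. The red cell marker HBB, 1 of 7 listed, ran from 9.05 to 67 and from 3.97 to 96. The groups overlapped in each of these ranges, and the part of these cells in the members' levels was not tested.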

How the data were processed

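RNA (100 ng) from the left ventricular free wall of 10 fetuses, 5 per group and each of a different ewe, was read on 1-colour Agilent arrays. Agilent Feature Extraction 10.1.1.1 is the software named in the submitters' processing notes. Per the file headers, the deposited processed intensity had spatial and multiplicative trends within the array removed; no step scales it between arrays. The authors' deposited table holds log2 values with nearly equal quantiles on every array, and no source used here gives its steps.

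Control spots (536 of 15744), flagged spots and spots not found were left out, spots of a probe were averaged, and levels were scaled to each array's 75th percentile. Saturated spots numbered 0. Precision is limited by having 10 arrays. Probes well above background on at least 5 arrays (10261, with 1504 missing values, 0 of them in a member) were tested with limma 3.58.1 in R 4.3.3, two-sided, with Benjamini-Hochberg adjustment over all of them at 0.05. The code was tested on simulated data.

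Names came from the files, updated against the sheep gene table ARS-UI_Ramb_v3.0 by accession (724 probes), symbol (511), gene identifier (125), synonym (20) or hand (27); 249 kept the file's name and 13352 had none. In lists, a gene was represented by its probe of highest mean level. Members, lists and tests were chosen with earlier results of these data known. The rule named the members, up to 8 genes of highest level per list, and the 3 named genes best correlated with each member over at least 8 arrays, with the area of lost signal left out; some genes the rule names are not reported here. The low FGF2 spot and the single-array values of CDK1, AURKA and TYMS were singled out, and list counts without the members added, after seeing the data. Alternatives were normexp (offset 50), other scalings, the authors' table, other filters, flagged spots kept, the area of lost signal left out, slide or replicate number as blocks, single slides and single arrays left out. Normexp started from the mean intensity and local background of each spot, not from the processed intensity.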

Additional observations from a re-analysis of the deposited data

Results flagged for a closer look

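In 2 of 26 sets of 5 member values, 1 array lay far apart from the rest, and chance does this in about 1 set in 20. The CCNA2 level on cortisol replicate 3 was -5.08, against -3.50 to -2.97 on the other cortisol arrays. The level of BCL2 probe A_70_P031257 on cortisol replicate 1 was 0.89, against 0.13 to 0.32, while the overlapping probe A_70_P031256 had 0.85 there and up to 0.90 on another cortisol array. The causes were not tested.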

How the results depend on the processing

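The count of probes called for cortisol against control was 0 under each alternative, with 238 to 852 at an unadjusted p under 0.05 in limma (333 in the setting reported). Of these 333, 49.2% were higher with cortisol, against 91.7% with normexp, 61% with median scaling, 68.2% in the authors' table and 36% without cortisol replicate 4. For the difference between slides 0 were called in each setting but 1, where all dim probes were kept (1 called), and 0 without any 1 array. For an effect of treatment that differs by slide, 0 to 471 were called as single arrays were left out: leaving out cortisol replicate 5 gave 471, replicate 4 of that group 11 and its replicate 3 only 1. Leaving out a slide 2 array leaves 1 array in an arm, assumed to vary like the others. The replicate block gave 0 called (397 unadjusted) and left each member's difference as it was. The labels give no pairing, and deviations of same-numbered arrays correlated at -0.01 to 0.22, above 0.1 in 3 of 5 pairs, with 3 of 5 controls closest to the array of their own number. The numbers were not taken as pairs. With the block the SE of both FGF2 probes was 0.11 in place of 0.17. Of the 10 member probes, 9 kept their sign in 22 of 22 alternatives and CCNA2 in 20 of 21. Some of these alternatives could not change a sign: the blocks, the probe filters and leaving out the area of lost signal cannot move a member's difference. The members were also chosen on this contrast, so the counts are a description. The gap between growth and cycle genes stayed between 0.26 and 0.62. CCNA2 does not pass the filter that asks for all 10 arrays, so that filter gave no value for it or the gap.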

Other observations

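Cyclin B1, the partner of CDK1, was named only by the description of a probe that resembles the bovine gene, and was in no list count. Its level on cortisol replicate 3 was -3.12, against -2.52 to -1.19 on the other 9 arrays, and it was well above background on 10 of 10. The control mean was -1.56 ± 0.25 (SD, n = 5) and the cortisol mean -2.07 ± 0.74 (SD, n = 5), a difference of -0.51 ± 0.31 (SE, adjusted p = 0.990 in limma), and -0.25 without that array. The feedback inhibitors of FGF signalling SPRY2 and SPRY4, looked up after the members' values were seen, had -0.12 ± 0.15 (SE) and -0.14 ± 0.26 (SE), and limma gave both an adjusted p of 0.990.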
